A study of Homo sapiens with 4 samples.

Results

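The genes described here encode transporters of zinc, copper, magnesium and manganese, with the mitochondrial iron carriers of the same solute carrier nomenclature. They were chosen by symbol, with earlier results of these data known. Taken were every listed *SLC30A*, *SLC39A* and *CNNM* gene, *SLC31A1* and *SLC31A2*, *SLC41A1* to *SLC41A3*, and *ATP7A*, *ATP7B*, *SLC11A1*, *MAGT1*, *MMGT1*, *SLC25A28* and *SLC25A37*. This gave 40 of the 28278 genes in the count table, of which 10 were *SLC30A*, 14 *SLC39A*, 4 copper, 9 magnesium and 3 other genes. RNA-seq was performed on 4 libraries of HepG2, a line labelled as human hepatocellular carcinoma. The cells had been infected with lentivirus that carried Cas9 and a sgRNA, either a control sgRNA (2 libraries, labelled control) or a *USP22* sgRNA (2 libraries, labelled sgUSP22). Stable populations were selected with puromycin, and whether they were single clones is not given in the sources used here. Sorafenib, a multikinase inhibitor, was given to all 4 at 10 µM over 24 h, so the comparison holds no untreated cells.

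Zinc, copper, magnesium and manganese are moved across membranes by separate protein families. ZIP proteins (*SLC39A*) bring zinc, and in some cases manganese and iron, into the cytosol, whereas ZnT proteins (*SLC30A*) move zinc out of the cytosol into vesicles, the Golgi apparatus or the medium. Cytosolic zinc is buffered by metallothioneins, and the zinc sensor MTF1 switches on metallothionein genes and *SLC30A1* through a short DNA motif, the metal response element. Copper enters through CTR1 (*SLC31A1*) and is pumped by ATP7A and ATP7B, copper ATPases of which ATP7B is the hepatocyte form that loads copper into the secretory pathway and bile.

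Each library held 62030307 to 64728272 counts. Where a gene is listed at 0, up to 3 counts remain possible, or 0.0457 to 0.0492 CPM (counts scaled to a common library size with TMM factors), a limit for counting error only. Sampling noise did not account for the spread within groups, where chi-square averaged 7.91 per gene in control and 8.44 in sgUSP22 libraries. The labels do not say whether replicates were separate cultures, so p-values measure the spread between these libraries only. RNA of the targeted gene was higher, not lower, under the sgUSP22 label. *USP22* had 16450 and 16537 counts in control libraries and 20279 and 20368 counts in libraries labelled sgUSP22. The difference was below 1.5-fold and passed the test (log2 fold change 0.22, adjusted p = 0.000394, edgeR). The study checked its knockout cells for USP22 protein by Western blot, and RNA counts do not measure protein. Directions below therefore follow the labels. The labelled cell type was not borne out by its markers. Of 20 hepatocyte genes, 10 were listed at 0 in all 4 libraries, *ALB*, *APOA1*, *APOB* and *TTR* among them. Only *CPS1* of the 20 was above 1 CPM in every library. Of 6 fibroblast markers, 5 were above 1 CPM in every library. The 6 summed to 641 to 645 CPM in control and 900 to 901 CPM in sgUSP22 libraries. Most of this was *COL3A1*, with 499 and 508 CPM in control and 576 and 569 CPM in sgUSP22 libraries. *COL1A2* had 7 counts in sgUSP22 replicate 1 and 0 elsewhere. *LUM* and *DCN* were called higher and *PDGFRB* lower, at log2 fold changes of 1.504, 2.995 and -0.98, while *COL1A1* overlapped between groups. Of 5 epithelial markers only *KRT8* and *KRT18* were above 1 CPM, with a summed level of 1756 to 1795 CPM in control and 1315 to 1373 CPM in sgUSP22 libraries. The 4 endothelial markers summed to at most 0.529 CPM. Of 5 leukocyte markers only *CD68* was above 1 CPM, and it was called lower (log2 fold change -0.70). The part of these markers in the results below was not tested.

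Most of the measured transporter genes shifted by less than 1.5-fold, and the 8 genes called were spread over the transporter families, with 4 *SLC39A*, 1 *SLC30A*, 1 magnesium, 1 copper and 1 mitoferrin gene. Of the 40 genes, 32 passed the filter on low counts and were tested (quasi-likelihood fit of edgeR, Benjamini-Hochberg adjustment over all 15150 tested genes, SE for standard error below). At 1.5-fold or more with an adjusted p below 0.05, 7 were higher in libraries labelled sgUSP22 (*SLC39A8*, *SLC39A10*, *SLC39A6*, *SLC39A4*, *SLC30A6*, *SLC41A2* and *SLC31A2*) and 1 was lower (*SLC25A37*). These are 21.9% and 3.12% of the 32, against 8.88% called higher and 7.25% called lower among all tested genes. *SLC39A4* entered the test through the sgUSP22 libraries alone, so its call could only be higher. By adjusted p without a fold threshold, 18 were higher and 7 lower, while the same rule took in 26.8% and 25.8% of all tested genes. Control and sgUSP22 libraries did not overlap for 22 genes in the higher and 7 in the lower direction, against 38.3% and 37.6% of all tested genes (75.9% in either direction). With DESeq2, 6 were called higher and 1 lower, against 7.14% and 5.59% of the genes it tested. The median log2 fold change was 0.29 over the 32 genes and 0.00091 over all tested genes. In bulk RNA, a change in the share of cells that express a gene cannot be told apart from a change in RNA per cell.

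The transporter genes covered a wide range of levels. Per kilobase of the canonical transcript, the zinc importer genes *SLC39A1* (127 in control and 117 in sgUSP22 libraries), *SLC39A7* (91.7 and 97.3) and *SLC39A14* (77.3 and 80.9) had the highest mean CPM. *SLC39A6*, *MAGT1*, *SLC31A1*, *SLC30A1* and *SLC39A10* followed, with 23.9 to 37.0 CPM per kilobase in control libraries. At the low end of the tested genes, *ATP7B*, *SLC30A3*, *SLC30A4* and *SLC31A2* had 0.264 to 1.09 CPM per kilobase in control libraries, and *SLC39A4*, the lowest, was listed at 0 there. These 3 most abundant genes changed little. *SLC39A1* had 251 and 265 CPM in control and 241 and 234 CPM in sgUSP22 libraries, a log2 fold change of -0.12 (SE 0.039, adjusted p = 0.0283, edgeR). *SLC39A7*, which releases zinc from the endoplasmic reticulum, had 229 and 213 CPM in control and 237 and 233 CPM in sgUSP22 libraries, and its difference did not pass the test (log2 fold change 0.08, adjusted p = 0.115, edgeR), though it passed at 0.20 once GC content and length were corrected for, as described below (adjusted p = 0.00228, edgeR). *SLC39A14*, an importer of zinc, manganese and iron that is prominent in liver, had 350 and 371 CPM in control and 386 and 368 CPM in sgUSP22 libraries. Its groups overlapped and its difference did not pass the test (log2 fold change 0.07, adjusted p = 0.206, edgeR).

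**Figure D1:**
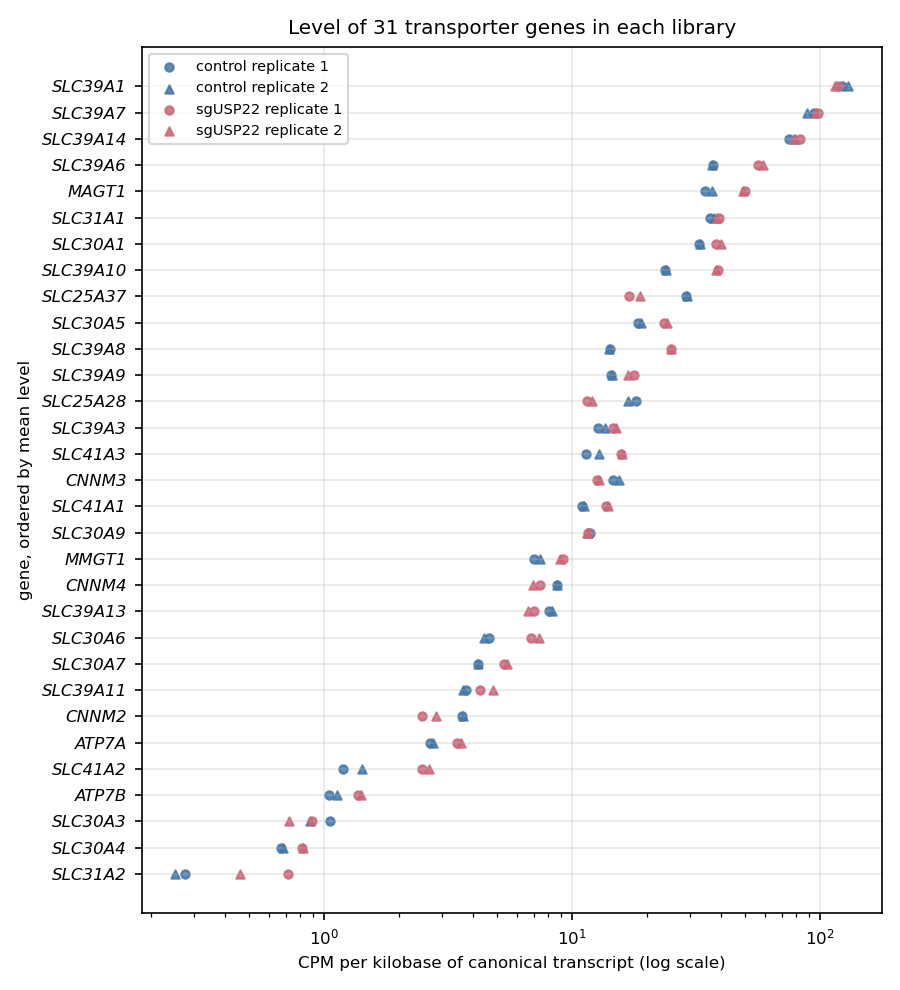
Level of 31 tested transporter genes in each library, as CPM per kilobase of canonical transcript on a log axis, with blue symbols for control and red symbols for sgUSP22 libraries (circles replicate 1, triangles replicate 2). *SLC39A1*, *SLC39A7* and *SLC39A14* lie at the top with nearly coinciding symbols, while *SLC39A8*, *SLC39A10* and *SLC41A2* show red symbols to the right of blue ones. *SLC39A4*, at 0 in control libraries, is left out.

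Among the 11 tested *SLC39A* genes, 4 were called higher, against 8.88% of all tested genes, and 1 of the 4 was *SLC39A4*, which passed the filter only through the sgUSP22 libraries. The median log2 fold change of the 11 was 0.26. The pair of LIV-1 genes *SLC39A6* and *SLC39A10*, whose proteins form a complex at the plasma membrane, rose by similar amounts. *SLC39A6* (chromosome 18, 36108531 to 36129385, minus strand, 10 exons, GENCODE on hg38) had 8090 and 8177 counts in control and 13229 and 13547 counts in sgUSP22 libraries. That is 131.9 ± 1.14 and 205.6 ± 6.04 CPM (SD, n = 2 each), a 1.56-fold increase (log2 fold change 0.64, SE 0.038, adjusted p = 9.23e-07, edgeR). *SLC39A10* (chromosome 2, 195575977 to 195737702, plus strand) had 7588 and 7778 counts in control and 13282 and 12859 counts in sgUSP22 libraries. It was 1.61-fold higher (log2 fold change 0.69, SE 0.036, adjusted p = 4.35e-07, edgeR). For both genes, each sgUSP22 library lay far above each control library. The ratio of *SLC39A6* to *SLC39A10*, per kilobase, was 1.56 and 1.54 in control and 1.46 and 1.54 in sgUSP22 libraries, so the balance of the pair moved little. After correction for transcript GC content and length, both stayed past the adjusted p threshold but below 1.5-fold, with log2 fold changes of 0.53 for *SLC39A6* (adjusted p = 8.33e-07, edgeR) and 0.42 for *SLC39A10* (adjusted p = 5.5e-06, edgeR).

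*SLC39A8* encodes ZIP8, which imports manganese, zinc and iron. It had the largest increase among the *SLC39A* genes detected in both groups. It lies on the minus strand of chromosome 4, from 102251080 to 102431258, with 9 exons. Counts were 2727 and 2778 in control and 5197 and 5094 in sgUSP22 libraries, so the replicates were tight and the groups far apart. The mean rose from 44.6 ± 0.137 to 79.0 ± 0.125 CPM (SD, n = 2 each), a 1.77-fold increase (log2 fold change 0.82, SE 0.045, adjusted p = 6.02e-07, edgeR). The call held after correction for GC content and length (0.75, adjusted p = 5.03e-07, edgeR). Omitting any 1 library gave values between 0.81 and 0.83. *SLC39A14* is the closest relative of *SLC39A8* and shares its substrates. Per kilobase, the ratio of *SLC39A8* to *SLC39A14* was 0.189 and 0.178 in control and 0.303 and 0.317 in sgUSP22 libraries, so *SLC39A8* gained on its more abundant relative. *SLC39A4*, the importer of dietary zinc in the intestine, was listed at 0 in both control libraries and had 30 and 20 counts in sgUSP22 libraries. The sgUSP22 level was 0.383 ± 0.104 CPM (SD, n = 2), or 7.88-fold the floor of 3 counts per library. This is not a lower limit of the change, since the floor covers counting error only. *APOA2*, for example, had 0 and 19 counts in the control libraries.

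The remaining tested *SLC39A* genes moved less. *SLC39A9*, a ZIP of the Golgi and plasma membrane, had 77.9 CPM in each control library and 96.0 and 90.6 CPM in sgUSP22 libraries (log2 fold change 0.26, adjusted p = 0.000785, edgeR). *SLC39A11* had 10.2 and 9.94 CPM in control and 11.6 and 13.1 CPM in sgUSP22 libraries (log2 fold change 0.30, adjusted p = 0.0377, edgeR). *SLC39A13*, a ZIP of the early secretory pathway that is needed for connective tissue, went the other way, from 18.9 and 19.4 CPM to 16.4 and 15.4 CPM (log2 fold change -0.26, adjusted p = 0.0256, edgeR). After the GC and length correction it was no longer past the threshold (-0.08, adjusted p = 0.445, edgeR). *SLC39A3* had 17.4 and 18.6 CPM in control and 19.9 and 20.6 CPM in sgUSP22 libraries, which did not pass the test (log2 fold change 0.17, adjusted p = 0.111, edgeR). It passed after the correction (0.42, adjusted p = 0.00117, edgeR), below 1.5-fold. *SLC39A1* reversed to 0.03 after the correction. GENCODE places the exons of another gene model on the same strand over 95.9% of the canonical *SLC39A1* exons and 29.6% of those of *SLC39A3*, so their counts may hold reads of those models. Summed over all *SLC39A* genes, the level was 1256 and 1276 CPM in control and 1491 and 1463 CPM in sgUSP22 libraries, or 16.7% higher.

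**Figure D2:**
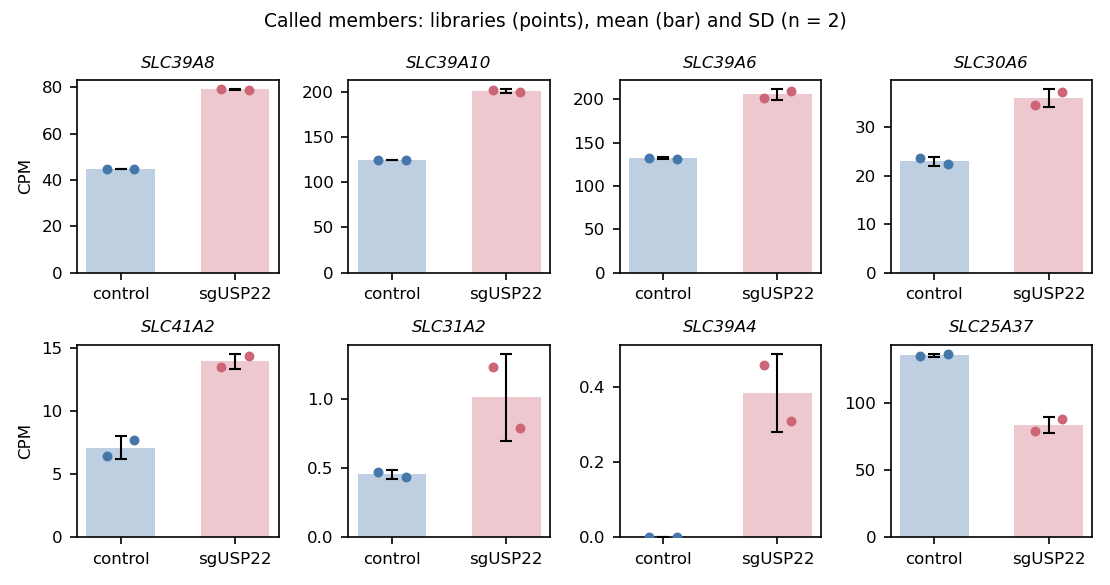
CPM of the 8 called genes, with points for libraries, bars for group means and error bars for the SD (n = 2). In each panel the control and sgUSP22 points do not overlap, which choosing called genes nearly fixes in advance. Among all tested genes 75.9% did not overlap. The points of *SLC31A2* and *SLC39A4* lie near or below 1 CPM and spread widely in sgUSP22 libraries.

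Against 8.88% of all tested genes, 1 of the 7 tested *SLC30A* genes (14.3%) was called higher, *SLC30A6*. ZnT6, its product, pairs with ZnT5 (*SLC30A5*) to load zinc into the Golgi, where zinc enzymes such as alkaline phosphatase are filled. *SLC30A6* (chromosome 2, 32165841 to 32224379, plus strand, 14 exons) had 1442 and 1396 counts in control and 2280 and 2411 counts in sgUSP22 libraries. The mean rose from 23.0 ± 0.90 to 36.0 ± 1.88 CPM (SD, n = 2 each), 1.57-fold (log2 fold change 0.65, SE 0.072, adjusted p = 4.81e-05, edgeR). After the GC and length correction the log2 fold change was 0.40 (adjusted p = 0.000519, edgeR), below 1.5-fold. *SLC30A5* had 4508 and 4725 counts in control and 6148 and 6214 counts in sgUSP22 libraries, a log2 fold change of 0.34 (SE 0.042, adjusted p = 9.26e-05, edgeR), which fell to 0.15 (adjusted p = 0.012, edgeR) after the correction. *SLC30A7*, whose product fills secretory zinc enzymes on its own, had 34.3 CPM in each control library and 43.7 and 45.0 CPM in sgUSP22 libraries (log2 fold change 0.37, adjusted p = 0.000319, edgeR). After the correction it was at 0.03 and not past the threshold (adjusted p = 0.715, edgeR). The ratio of *SLC30A5* to *SLC30A6* per kilobase was 3.99 and 4.31 in control and 3.44 and 3.29 in sgUSP22 libraries.

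*SLC30A1* encodes the main zinc exporter of the plasma membrane. It had 192 and 194 CPM in control and 224 and 235 CPM in sgUSP22 libraries, a log2 fold change of 0.25 (SE 0.038, adjusted p = 0.000367, edgeR). The groups did not overlap, but after the correction the log2 fold change was 0.05 and did not pass (adjusted p = 0.236, edgeR). *SLC30A9*, a mitochondrial ZnT, had 72.7 and 71.3 CPM in control and 71.7 and 71.1 CPM in sgUSP22 libraries, and the groups overlapped (log2 fold change -0.01, adjusted p = 0.842, edgeR). After the correction it was at -0.26 (adjusted p = 0.000586, edgeR), and with library size alone at 0.04. *SLC30A3* and *SLC30A4*, ZnT genes of vesicles, had 161 to 189 and 292 to 303 counts in control libraries and 137 to 172 and 377 to 382 counts in sgUSP22 libraries. Neither passed the test (adjusted p = 0.323 and 0.116, edgeR). All *SLC30A* genes together had 405 CPM in each control library and 476 and 493 CPM in sgUSP22 libraries, and *SLC30A1* made up 47.7% of the control level.

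Of the copper genes, *SLC31A1*, the high-affinity importer, was the most abundant and changed least. It had 10484 and 11063 counts in control and 12267 and 11835 counts in sgUSP22 libraries, and the difference did not pass the test (log2 fold change 0.08, SE 0.037, adjusted p = 0.0841, edgeR). The correction took it to -0.02. The copper ATPase genes both rose below 1.5-fold. *ATP7A* went from 22.6 and 23.4 CPM to 29.1 and 30.2 CPM (log2 fold change 0.36, adjusted p = 0.00172, edgeR), and after the correction was no longer past the threshold (0.07, adjusted p = 0.407, edgeR). *ATP7B* went from 6.92 and 7.44 CPM to 9.09 and 9.29 CPM (log2 fold change 0.36, adjusted p = 0.0249, edgeR) and had 0.32 after the correction (adjusted p = 0.0402, edgeR). *ATP7A* outnumbered *ATP7B* per kilobase in every library, with *ATP7B* at 0.394 to 0.409 of *ATP7A*, a ratio that moved little between groups.

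*SLC31A2*, which encodes a CTR1-like protein of endosomes and lysosomes, was called higher from few counts, with 29 and 27 in control and 81 and 51 in sgUSP22 libraries. The means were 0.454 ± 0.030 and 1.01 ± 0.313 CPM (SD, n = 2 each), a log2 fold change of 1.15 (SE 0.39, adjusted p = 0.0313, edgeR). The call was lost with DESeq2 (adjusted p = 0.12), with the replicate number as a block (adjusted p = 0.0515, edgeR), without control replicate 1 (0.0601), without control replicate 2 (0.0908) and without sgUSP22 replicate 1 (0.244). *SLC31A2* lies on the plus strand of chromosome 9 from 113150976 to 113164140, and exons of *FKBP15* cover 91.8% of its canonical exons on the other strand. Whether strand was used in counting is not given in the sources used here, so reads of the pair cannot be told apart. *FKBP15* itself had 2887 and 2819 counts in control and 2818 and 2947 counts in sgUSP22 libraries.

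The *SLC41A* and *CNNM* genes moved in opposite directions. All 3 *SLC41A* genes, whose products carry magnesium across the plasma or mitochondrial membrane, were higher, and all 3 tested *CNNM* genes, whose products are linked to magnesium efflux and bind PRL phosphatases, were lower. These directions held under every alternative tried. Among all tested genes 50.1% had a log2 fold change above 0, and by adjusted p 26.8% were higher and 25.8% lower. *CNNM2* moved by about as much as its neighbours on chromosome 10, as described below. *SLC41A2* was called, with 396 and 484 counts in control and 890 and 929 counts in sgUSP22 libraries. Its mean rose from 7.13 ± 0.894 to 13.97 ± 0.599 CPM (SD, n = 2 each), 1.96-fold (log2 fold change 0.97, SE 0.12, adjusted p = 8.97e-05, edgeR), and the call held after the GC and length correction (0.69, adjusted p = 0.000656, edgeR). *SLC41A1* went from 54.8 and 56.1 CPM to 68.6 and 70.1 CPM (log2 fold change 0.32, adjusted p = 0.000247, edgeR). *SLC41A3*, the mitochondrial member, went from 24.8 and 28.0 CPM to 34.3 and 34.8 CPM (log2 fold change 0.39, adjusted p = 0.0017, edgeR) and had 0.51 after the correction. *SLC41A2* was the least abundant of the 3, at 0.109 and 0.127 of *SLC41A1* per kilobase in control and 0.182 and 0.189 in sgUSP22 libraries.

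*CNNM2* had 3478 and 3594 counts in control and 2579 and 2898 counts in sgUSP22 libraries (log2 fold change -0.45, SE 0.066, adjusted p = 0.000307, edgeR). It was called lower after the GC and length correction (-0.65, adjusted p = 9.37e-06, edgeR). Exons of other genes on the opposite strand, *NT5C2* among them, cover 17.4% of its canonical exons, and *NT5C2* was also lower (log2 fold change -0.24). *CNNM3* went from 71.8 and 76.0 CPM to 62.1 and 63.0 CPM (log2 fold change -0.24, adjusted p = 0.00192, edgeR). *CNNM4* went from 41.7 and 41.6 CPM to 35.6 and 33.4 CPM (log2 fold change -0.27, adjusted p = 0.00324, edgeR). *CNNM4* and *CNNM3* lie 4.4 kb apart on the same strand of chromosome 2, and the 53 other tested genes within 5 Mb of them had a median log2 fold change of 0.05. *MAGT1*, a subunit of the oligosaccharyltransferase complex that was also described as a magnesium transporter, was the most abundant gene of the group. It had 9480 and 10290 counts in control and 14812 and 14228 counts in sgUSP22 libraries, 1.39-fold higher (log2 fold change 0.48, SE 0.040, adjusted p = 8.25e-06, edgeR), and 0.28 after the correction. *MAGT1* and *ATP7A* stand head to head on chromosome X, 11.4 kb apart, and the ratio of *ATP7A* to *MAGT1* per kilobase was 0.0772 and 0.0753 in control and 0.0685 and 0.0727 in sgUSP22 libraries. *MMGT1*, a subunit of the membrane protein insertion complex EMC, had 36.2 and 38.4 CPM in control and 47.5 and 46.2 CPM in sgUSP22 libraries (log2 fold change 0.33, adjusted p = 0.000806, edgeR), and did not pass after the correction (0.06, adjusted p = 0.451, edgeR).

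Both mitoferrin genes, whose products carry iron into the mitochondrial matrix, were lower. *SLC25A37* (mitoferrin 1, chromosome 8, 23528956 to 23575463, plus strand) was the called gene, with 8217 and 8498 counts in control and 5221 and 5678 counts in sgUSP22 libraries. Its mean fell by 38.2%, from 135.5 ± 1.03 to 83.7 ± 6.01 CPM (SD, n = 2 each), a log2 fold change of -0.69 (SE 0.050, adjusted p = 2.96e-06, edgeR). After the GC and length correction it was at -0.71 (adjusted p = 9.96e-07, edgeR), and the 54 other tested genes within 5 Mb had a median of 0.04. *SLC25A28* (mitoferrin 2) had 1681 and 1609 counts in control and 1148 and 1189 counts in sgUSP22 libraries. It passed the adjusted p threshold just short of 1.5-fold, with a log2 fold change of -0.57 (SE 0.080, adjusted p = 0.000219, edgeR). Without control replicate 2 it was -0.62 and without sgUSP22 replicate 2 it was -0.61, both called, so the count of lower genes became 2. After the GC and length correction it was -0.38 (adjusted p = 0.00224, edgeR). The ratio of *SLC25A37* to *SLC25A28* per kilobase was 1.6 and 1.73 in control and 1.49 and 1.56 in sgUSP22 libraries.

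*SLC25A28*, from 99610519 to 99622793, and *CNNM2*, from 102918294 to 103090222, both lie on the long arm of chromosome 10, where many genes were lower. The 105 other tested genes within 5 Mb of *SLC25A28* had a median log2 fold change of -0.49, and 40% of them were called lower. For *CNNM2* the 75 neighbours had a median of -0.46, and 37.3% were called lower. Beyond 40 Mb on this chromosome 29.5% of 431 tested genes were called lower, against 6.52% of the genes elsewhere. Both genes moved by about as much as their neighbours. *SLC30A7* on chromosome 1 also moved like its 22 neighbours, whose median was 0.37. For every gene called higher, the median of the neighbours was below the gene, which choosing genes at 1.5-fold or more nearly fixes in advance. Neighbours of *SLC39A8*, *SLC39A10*, *SLC30A6*, *SLC41A2* and *SLC39A6* had medians of 0.03, -0.05, 0.08, 0.15 and 0.24. Those of *SLC31A2* and *SLC39A4* had medians of 0.17 and -0.12.

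The changes also followed the GC content of the transcripts, as they did over all tested genes. The tested genes were divided by GC content into 4 sets of 3596. In the set with the lowest GC content, up to 42.1%, the median log2 fold change was 0.17 over all genes and 0.37 over the 12 transporter genes in it. In the set above 57.2% it was -0.16 over all genes and -0.25 over 6 transporter genes. Of the 7 genes called higher, 4 fell in the lowest set (*SLC39A10*, *SLC39A6*, *SLC30A6* and *SLC41A2*), where 12.5% of all tested genes were called higher. Across the 31 tested genes other than *SLC39A4*, log2 fold change and GC content had a Pearson r of -0.56 and a Spearman rho of -0.63, a description over genes that share the same 4 libraries. Removing each library's trends against GC content and length lowered the median of the 32 genes from 0.29 to 0.10. With it, 4 were called higher (*SLC39A8*, *SLC41A2*, *SLC39A4* and *SLC31A2*) and 2 lower (*SLC25A37* and *CNNM2*), or 12.5% and 6.25%, against 8.04% and 6.65% of all tested genes in that fit.

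**Figure D3:**
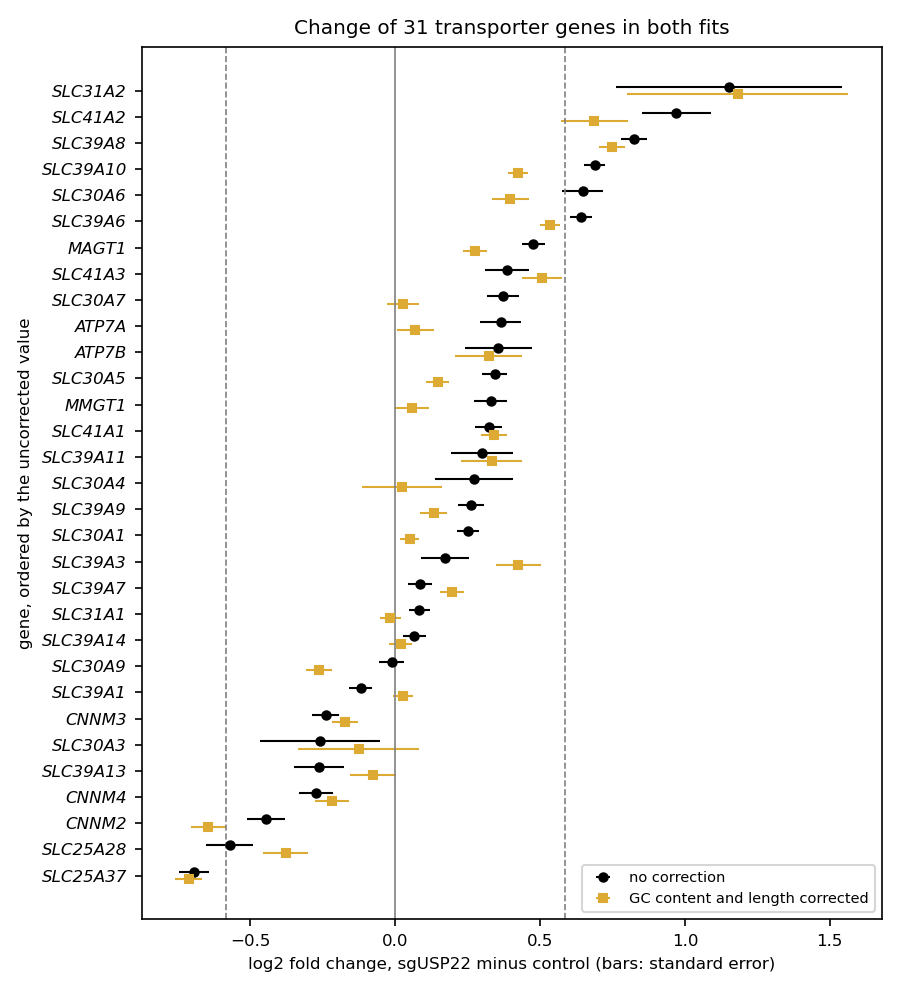
Log2 fold change of 31 tested genes with standard errors, as measured (black circles) and after correction for GC content and transcript length (yellow squares), with dashed lines at 1.5-fold. *SLC39A8* and *SLC41A2* stay beyond the right dashed line in both fits, *SLC39A10*, *SLC39A6* and *SLC30A6* move inside it, and *SLC25A37* stays beyond the left one.

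The remaining 8 genes did not pass the filter on low counts. *SLC30A2*, *SLC30A8*, *SLC30A10* and *SLC39A2* were listed at 0 in all 4 libraries. *SLC39A5* and *SLC39A12* had 4 counts in sgUSP22 replicate 2 and 0 elsewhere, and *CNNM1* had 4 counts in control replicate 2 and 0 elsewhere. *SLC11A1*, which encodes the phagosomal metal transporter NRAMP1 of macrophages, had 5 and 7 counts in control and 5 and 8 counts in sgUSP22 libraries. *SLC30A10*, the manganese exporter of liver, was thus among the genes listed at 0, as was *SLC30A8*, the ZnT of insulin granules. Whether reads of these genes were present was not tested.

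Other genes that bind, sense or move these metals were compared by a list of 43 symbols, of which 35 were tested, and 5 were called higher and 5 lower, or 14.3% in each direction, against 8.88% and 7.25% of all tested genes. The median log2 fold change of the 35 was 0.04. Called lower were the metallothionein genes *MT2A*, *MT1X* and *MT1E*, *CUTC*, which encodes a copper-binding protein, and *PTP4A3*, a PRL phosphatase. Called higher were *MT1F*, *SCO2*, a copper chaperone of cytochrome c oxidase, the magnesium channel gene *TRPM7*, the magnesium transporter homologue *NIPAL3* and *SLC11A2*, which encodes DMT1, an importer of iron and manganese. *TRPM7* had 2990 and 2860 counts in control and 5292 and 5745 counts in sgUSP22 libraries (log2 fold change 0.84, SE 0.060, adjusted p = 2.72e-06, edgeR). Corrected for GC content and length, it was at 0.54, below 1.5-fold, while *NIPAL3* was at 0.82 and stayed called. *SCO2* had a log2 fold change of 0.94, and 1.20 with the correction, where it stayed called. *SLC11A2* had 9810 and 9816 counts in control and 15724 and 15569 counts in sgUSP22 libraries (log2 fold change 0.59, SE 0.035, adjusted p = 9.14e-07, edgeR) and 0.50 after the correction. The Golgi manganese genes *TMEM165* and *ATP2C1* also rose, below 1.5-fold, with log2 fold changes of 0.44 and 0.28 (adjusted p = 5.38e-05 and 0.000163, edgeR), and corrected values of 0.44 and 0.10. *CUTC* and *PTP4A3* had log2 fold changes of -0.67 and -0.71, and corrected values of -0.63, still called, and -0.54, no longer called. *STEAP4*, which encodes a metalloreductase, was at -0.29 and not called, and at -0.60 and called lower with the correction. It is named here after its values were seen.

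**Figure D4:**
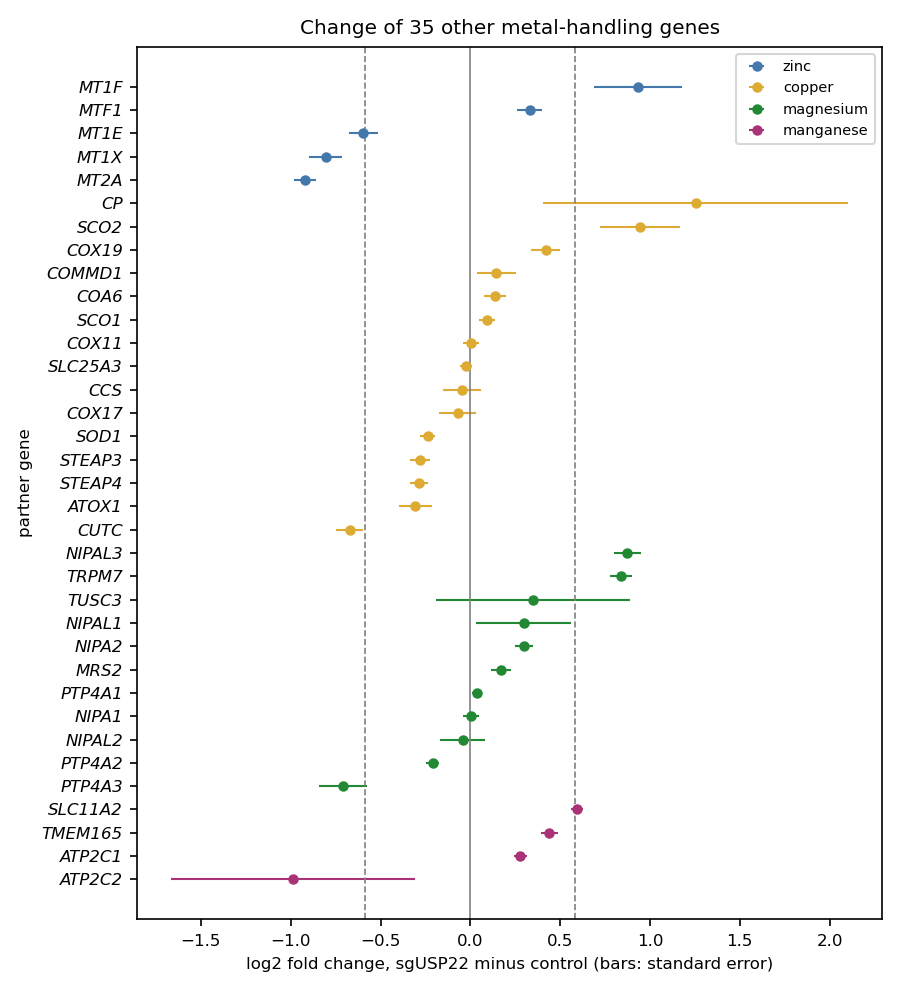
Log2 fold change with standard error of the 35 tested genes of the list, coloured by metal, with dashed lines at 1.5-fold. *MT2A*, *MT1X* and *MT1E* lie to the left and *MT1F*, *SCO2*, *NIPAL3* and *TRPM7* to the right. *CP* and *ATP2C2* have few counts and wide errors.

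Of the 4 called metallothionein genes, 3 were lower and *MT1F* was higher. *MT2A* had 15544 and 14614 counts in control and 9064 and 7774 counts in sgUSP22 libraries, and fell to 129 ± 12.4 from 245 ± 14.6 CPM (SD, n = 2 each), a log2 fold change of -0.92 (SE 0.063, adjusted p = 2.2e-06, edgeR). *MT1X* had 1687 and 1644 counts in control and 1092 and 923 counts in sgUSP22 libraries (log2 fold change -0.80, adjusted p = 6.16e-05, edgeR). *MT1E* had a log2 fold change of -0.60 (adjusted p = 0.000191, edgeR), which was -0.42 and below 1.5-fold after the GC and length correction, where *MT2A* and *MT1X* were at -0.64 and -0.60 and stayed called. *MT1F* rose from 64 and 65 to 128 and 132 counts (log2 fold change 0.93, adjusted p = 0.00937, edgeR). After the correction *MT1F* was at 1.17 and stayed called (adjusted p = 0.00265, edgeR). These genes are near-identical copies, and how reads were shared among them was not tested. *MTF1* rose from 1877 and 1908 to 2391 and 2631 counts (log2 fold change 0.33, adjusted p = 0.00287, edgeR) and had 0.19 after the correction (adjusted p = 0.0311, edgeR).

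Since MTF1 acts through the metal response element, its core was searched on both strands in the 250 bases before each RefSeq start (GRCh38.p14), as TGCACNC or TGCGCNC. It was found in 24.8% of 35116 promoters. Of the 40 genes, 34 had a promoter entry, and 14 of their 48 promoters held the core, or 29.2%. *MMGT1*, *SLC25A37*, *SLC30A8*, *SLC31A2*, *SLC39A4* and *SLC39A14* had no entry. The 5 genes called higher with an entry had 9 promoters, of which 3 held the core, or 33.3%. *SLC39A8*, *SLC39A6* and *SLC30A6* had 1 core each, and *SLC39A10* and *SLC41A2* had no match in these windows. For *SLC39A8* the other listed starts had no match either. The *SLC39A6* core lies 17 bases before the RefSeq start but inside the gene span given by GENCODE. The *SLC39A8* core also lies inside its GENCODE gene span. In 3 of the 34 genes a promoter held 2 or more cores, with 3 cores in *SLC30A2*, and the *MT1X* promoter held 4. The sequences below are shown to compare transporter promoters that held 1 core with the 7 cores of *MT2A*. Each is given without its own annotated exons, 5′ to 3′ with cores in capitals (GAGTGCA and GTGTGCA are cores on the other strand).
*SLC30A1*, chr1:211579162-211579411, minus strand: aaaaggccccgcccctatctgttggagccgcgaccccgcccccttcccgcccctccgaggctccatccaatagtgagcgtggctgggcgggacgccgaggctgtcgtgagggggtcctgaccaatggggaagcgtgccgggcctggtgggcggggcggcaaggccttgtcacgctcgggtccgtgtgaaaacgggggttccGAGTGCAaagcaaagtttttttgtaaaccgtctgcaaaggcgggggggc
*SLC30A6*, chr2:32165614-32165840, plus strand: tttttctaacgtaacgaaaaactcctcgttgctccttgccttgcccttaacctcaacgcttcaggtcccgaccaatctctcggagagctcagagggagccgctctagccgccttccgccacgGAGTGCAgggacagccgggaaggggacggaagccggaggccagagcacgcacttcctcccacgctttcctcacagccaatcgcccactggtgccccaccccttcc
*SLC39A8*, chr4:102345532-102345685, minus strand: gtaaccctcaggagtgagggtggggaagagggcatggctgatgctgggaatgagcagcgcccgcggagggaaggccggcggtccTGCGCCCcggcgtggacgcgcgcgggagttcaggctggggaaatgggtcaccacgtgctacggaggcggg
*MT2A*, chr16:56608334-56608583, plus strand: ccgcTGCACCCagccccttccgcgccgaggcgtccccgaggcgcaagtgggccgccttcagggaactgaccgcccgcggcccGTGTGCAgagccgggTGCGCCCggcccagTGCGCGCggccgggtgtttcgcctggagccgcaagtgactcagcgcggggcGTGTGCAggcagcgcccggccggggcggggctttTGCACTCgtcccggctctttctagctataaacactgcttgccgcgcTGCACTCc

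*SLC30A1*, with 1 core 49 bases before the start, rose by a log2 of 0.25, *SLC30A6*, with 1 core 128 bases before it, rose by 0.65, and *SLC39A8*, with 1 core 119 bases before it, rose by 0.82, while *MT2A* changed by -0.92. The number of cores and the direction of change thus varied from gene to gene, and a match is a description of letters, not a site of binding.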

How the data were processed

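RNA-seq counts of 4 HepG2 libraries were analysed. Per the labels and the study's methods, the authors aligned reads to hg38 with HISAT2 2.2.1 and deposited whole-number gene counts from StringTie 2.2.1, not divided by library size. The annotation, strand setting and read length are not given in the sources used here. StringTie derives counts from coverage, so a 0 is reported as listed at 0. All columns were assigned by name.

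Tests were run with edgeR 4.0.16 under R 4.3.3 (TMM, filterByExpr at min.count 10, then glmQLFit with glmQLFTest, no block) over all 15150 tested genes. The standard error (SE) was taken as |log2 fold change| over the root of the F statistic. Calls required a Benjamini-Hochberg adjusted p below 0.05 and at least 1.5-fold. Libraries held 62030307 to 64728272 counts. Alternatives were DESeq2 1.42.0, scaling by RLE or by library size only, dropping the filter, requiring a mean count of 50, a replicate block, no fold threshold, a test against 1.5-fold, each library left out, and offsets that removed lowess trends (span 0.3) against GC content and length of the GENCODE v44 canonical transcript, known for 94.9% of tested genes. Levels per kilobase use that transcript. Procedures were tested on simulated data. Named genes were every called member, members past the adjusted p alone and among the 10 highest per kilobase, the 5 highest per kilobase, every called gene of the metal list, and others where a subfamily is described. Members and lists were chosen with earlier results of these data known.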

Additional observations from a re-analysis of the deposited data

How the results depend on the processing

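Numbers of calls stayed within 1.5 times of 7 higher and 1 lower transporter gene, 5 and 5 genes of the metal list, and 1345 and 1098 of all genes under DESeq2, RLE scaling, scaling by library size, no filter, and a minimum mean of 50 counts, where *SLC31A2* and *SLC39A4* were not tested. With no fold change threshold, by construction, the transporter genes were 18 and 7, the list 11 and 10, and all genes 4057 and 3904. With a test against 1.5-fold they were 4 and 0 (1 lower gene at an unadjusted p below 0.05, glmTreat of edgeR), 2 and 1, and 578 and 428. After the GC and length correction 4 transporter genes were higher and 2 lower, and 3 list genes higher. With each library left out, transporter genes called higher ranged from 6 to 7 and lower from 1 to 2, list genes from 4 to 5 and from 3 to 5 (3 without sgUSP22 replicate 2), and all genes from 1172 to 1413 and from 1015 to 1137. There, a group with 1 library is assumed to vary like the other.

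Whether same-numbered libraries pair is not given by the labels. Their deviations had a correlation of 0.042 across genes, which cannot decide it with 2 libraries per group. With the replicate block, 6 transporter genes were higher and 1 lower, *SLC31A2* being lost. Of the 286 comparisons of a transporter gene with another setting than a left-out library, 3 reversed, all for genes that were not called. *SLC30A9* went to 0.0402 when scaled by library size, and ranged from -0.030 to 0.0022 with a library left out, above 0 without control replicate 1. The GC and length correction moved *SLC39A1* to 0.028 and *SLC31A1* to -0.017. The cause was not tested. *SLC31A2* and *SLC39A4* rest on at most 81 and 30 counts in a library, and 8 genes had too few counts to be tested.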
